A study of Mus musculus with 12 samples.

Results

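The 10 genes described here encode proteins of the basement membrane or proteins that help to build it: the laminin chains Lama1, Lama5, Lamb1 and Lamc1, the collagen IV chains Col4a1 and Col4a2, the linker proteins Nid1 and Hspg2, the matrix protein Sparc and the collagen chaperone Serpinh1. They were chosen by name, and every non-control probe whose accession maps to one of them was taken: 16 of the 56605 probes, with 1 probe for 5 genes, 2 for 4 genes and 3 for Lamb1. All 16 probes were well above background on all 12 arrays, so each of the 10 genes was among the 26837 genes tested. Each gene is represented by its brightest probe, and the other probes are given where they differ.

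Expression was measured in mouse embryonic stem cells on 12 one-colour arrays in 4 groups of 3, which the series describes as biological replicates. All groups shared a medium with leukaemia inhibitory factor (LIF) and 250 nM PD173074, which inhibits receptors for fibroblast growth factors. The groups were untreated cells, titled 0 h; cells given 250 nM 4OHT for 6 h; cells given 1 µM MG132 for 30 min and a further 6 h; and cells given MG132 for 30 min and then MG132 with 4OHT for 6 h. MG132 blocks the proteasome, and 4OHT (4-hydroxytamoxifen) binds oestrogen receptor fusion proteins that are built to respond to it. The labels name no strain, clone, fusion protein or vehicle, and no untreated array is titled 6 h, so the effect of a compound and that of hours in culture cannot be told apart when untreated cells are the control. The p-values rest on the spread among these arrays.

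Basement membranes are thin sheets of matrix on which epithelia rest. Laminin trimers of an alpha, a beta and a gamma chain polymerise at the cell surface, collagen IV forms a network of its own, and nidogen and perlecan connect the networks. Collagen chains are folded in the endoplasmic reticulum with the help of HSP47, the product of Serpinh1. In the early embryo the primitive endoderm and its parietal derivative secrete these proteins in large amounts, and embryonic stem cells also make laminin.

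Between 49.4% and 63.2% of probes were well above background per array and no spot was saturated. The share was lowest on 4OHT replicates 2 (49.4%) and 3 (53.5%), and the 75th percentile was lowest on 4OHT replicate 1 (207.2). Precision is also limited by the 3 arrays per group. All 8 embryonic stem cell markers were well above background on all 12 arrays. Of 19 endoderm markers, 13 to 16 were above background per array, with Ttr and Apoa1 on 0 arrays, and of 13 fibroblast markers 7 to 11, with Lum on 0 arrays. In bulk RNA, fewer cells of a type and less RNA per cell cannot be told apart. The untreated and 4OHT arrays and MG132 replicates 1 and 2 lay on slide 1, and slide 2 held the group with both compounds and MG132 replicate 3. The replicate 3 arrays stood apart from the others, which is described gene by gene at the end. Deviations from the group means over all genes had an SD between 0.393 and 0.446 with 4OHT alone and between 0.192 and 0.295 in the other groups, and the test uses 1 spread per gene over all 12 arrays.

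Promoter windows are shown for the 4 members with a window that changed in more than 1 treatment comparison, since these genes moved in different directions. Each window is the 250 bases before the start site in RefSeq (GRCm38.p6), printed 5′ to 3′ in the direction of the gene. Capitals mark the GC box GGGCGG, read as CCGCCC on the other strand, and in Lamb1 also the CCAAT box.
Lama5 (chr2:180225860-180226109, minus strand): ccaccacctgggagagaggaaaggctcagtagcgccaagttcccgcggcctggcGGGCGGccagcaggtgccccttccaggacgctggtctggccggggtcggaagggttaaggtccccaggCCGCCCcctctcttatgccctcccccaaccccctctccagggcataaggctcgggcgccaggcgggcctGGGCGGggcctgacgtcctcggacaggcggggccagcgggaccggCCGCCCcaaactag
Lamb1 (chr12:31265043-31265292, plus strand): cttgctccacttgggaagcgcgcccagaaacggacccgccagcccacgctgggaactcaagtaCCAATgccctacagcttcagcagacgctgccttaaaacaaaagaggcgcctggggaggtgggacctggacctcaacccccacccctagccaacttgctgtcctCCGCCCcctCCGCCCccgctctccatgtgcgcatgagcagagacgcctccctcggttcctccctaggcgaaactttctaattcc
Hspg2 (chr4:137468553-137468802, plus strand): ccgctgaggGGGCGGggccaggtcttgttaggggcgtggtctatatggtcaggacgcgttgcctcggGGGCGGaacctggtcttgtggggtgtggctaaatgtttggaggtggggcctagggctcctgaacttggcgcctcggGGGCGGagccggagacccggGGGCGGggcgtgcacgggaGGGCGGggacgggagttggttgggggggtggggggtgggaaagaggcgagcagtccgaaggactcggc
Serpinh1 (chr7:99353240-99353489, minus strand): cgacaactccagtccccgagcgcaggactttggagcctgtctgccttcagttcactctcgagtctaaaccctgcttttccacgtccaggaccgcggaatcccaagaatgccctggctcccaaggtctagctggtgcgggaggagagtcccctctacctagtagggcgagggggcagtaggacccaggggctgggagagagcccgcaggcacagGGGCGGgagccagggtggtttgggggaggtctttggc
The GC box occurred 4 times in the Lama5 window, 5 times in Hspg2, 2 times in Lamb1 and 1 time in Serpinh1. Windows were found for 8 of the 10 members, not for Lama1 and Lamc1. A GC box was present in 6 of the 8, the exceptions being Sparc and Col4a1, and in 32.7% of all 32851 promoter windows of 250 bases. CCAAT was present in 4 of the 8 and in 33.8% of all windows. Searched on both strands, the heat shock element core GAANNTTC (6.69% of all windows), TATAAA (12.4%), the GATA factor sites (the motif AGATAA, the motif TGATAA, the motif AGATAG or the motif TGATAG; 26.5%) and TGACGTGG (0.563%) were in 0 of the 8, which says only that these letters are not in these windows.

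Levels are given below as the log2 of the processed intensity over the array's 75th percentile, so 0 is that percentile, in the order of replicates 1, 2 and 3. Levels of different genes come from different probes and are not compared. A change is a difference of mean levels with its standard error (SE), n = 3 arrays per group, and is called at an adjusted p below 0.05 in limma over all genes tested. The 4 comparisons reuse the same 4 groups, so their results are not independent.

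**Figure D1:**
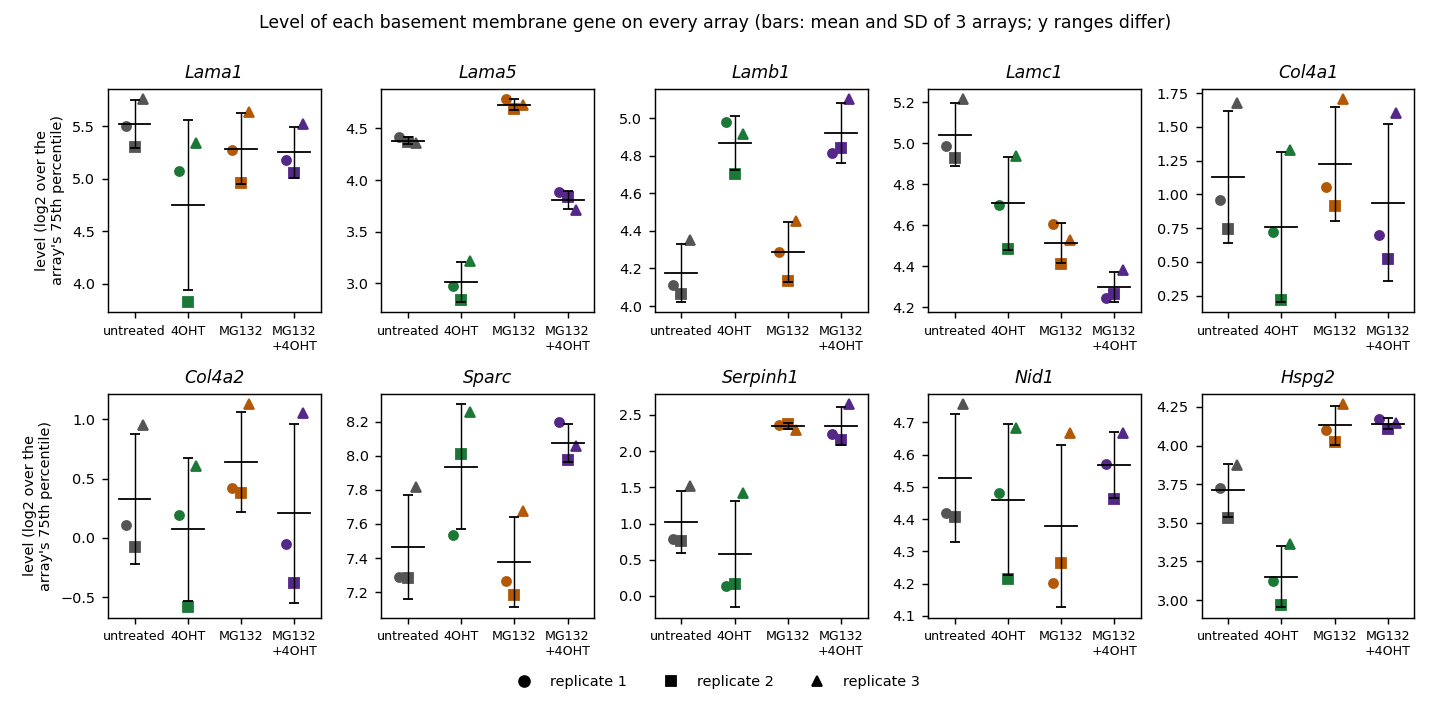
Level of each of the 10 genes (log2 over the array's 75th percentile, separate y range per gene) on the 12 arrays, by group, with the symbol giving the replicate number and bars the mean and SD of 3 arrays. Lama5 separates all 4 groups, Serpinh1 and Hspg2 are high in both MG132 groups, and in Col4a1 and Col4a2 the replicate 3 array is the highest of each group.

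The laminin alpha chain Lama5 was the member that followed the treatments most closely. It lay at 4.42, 4.37 and 4.36 in untreated cells, at 2.98, 2.83 and 3.22 with 4OHT, at 4.79, 4.68 and 4.72 with MG132, and at 3.88, 3.84 and 3.71 with both compounds. No 2 groups overlapped, in the order MG132, untreated, both compounds, 4OHT. Lama5 fell 2.59-fold with 4OHT (a log2 change of -1.37 ± 0.11 SE, adjusted p = 9.8e-06) and 1.90-fold when 4OHT was added under MG132 (-0.92 ± 0.11, adjusted p = 0.00028). It rose with MG132, by 0.35 ± 0.11 against untreated cells (adjusted p = 0.021) and by 0.80 ± 0.11 in cells that also received 4OHT (adjusted p = 0.00016). Of the 10 genes it was the only one called in all 4 comparisons. The rise against untreated cells was the least firm of these calls: it was 0.05 (adjusted p = 0.77) when arrays were centred on their medians, and lost its call without untreated replicate 2 (adjusted p = 0.061), untreated replicate 3 (0.056) or MG132 replicate 1 (0.067).

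Lama1, the alpha chain of the laminin of early embryos, was not called between treatments in the fit without a replicate term. Its levels were 5.51, 5.30 and 5.76 in untreated cells, 5.07, 3.83 and 5.34 with 4OHT, 5.27, 4.96 and 5.63 with MG132, and 5.18, 5.05 and 5.52 with both compounds. The groups overlapped throughout, and the lowest array by far was 4OHT replicate 2. That array also had the smallest share of probes well above background of all 12 (49.4%). The log2 change with 4OHT was -0.78 ± 0.35 (adjusted p = 0.13), and without 4OHT replicate 3 it was -1.07 and was called (adjusted p = 0.040), as it also was under normexp (-0.89, adjusted p = 0.039), median centring (-0.93, 0.050) and array weights (0.021).

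Lamb1, the beta chain that joins both alpha chains, went the opposite way from Lama5 in the presence of 4OHT. Its levels were 4.11, 4.06 and 4.35 in untreated cells and 4.98, 4.71 and 4.92 with 4OHT, a rise of 0.69 ± 0.13 or 1.61-fold (adjusted p = 0.0029). With MG132 they were 4.29, 4.13 and 4.45 and with both compounds 4.82, 4.84 and 5.10, a rise of 0.63 ± 0.13 (adjusted p = 0.0066). Every array with 4OHT was above every array without it, while the 2 groups with 4OHT overlapped each other, as did the 2 without. The change under MG132 was 0.47 and not called within slide 2 (adjusted p = 0.16, 3 arrays against 1) or with slide as a block (0.13). MG132 moved Lamb1 by 0.11 ± 0.13 against untreated cells (adjusted p = 0.53). All 3 probes were called higher with 4OHT, by 0.69, 0.88 and 1.18, and 2 of the 3 were called higher under MG132.

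Lamc1, the gamma chain, fell with MG132. Its levels were 4.98, 4.93 and 5.22 in untreated cells, 4.70, 4.48 and 4.94 with 4OHT, 4.61, 4.41 and 4.53 with MG132, and 4.25, 4.27 and 4.38 with both compounds. The untreated and 4OHT groups overlapped, as did the 4OHT and MG132 groups, and the arrays with both compounds were the 3 lowest of all. Lamc1 fell by 0.53 ± 0.13 with MG132 against untreated cells (adjusted p = 0.0076) and by 0.41 ± 0.13 in cells with 4OHT (adjusted p = 0.023). After quantile normalization these were -0.33 (adjusted p = 0.054) and -0.24 (0.14), and the latter call was also lost without 4OHT replicate 3 (adjusted p = 0.072) or either of replicates 1 (0.070) and 2 (0.066) of the group with both compounds. The change with 4OHT was -0.34 ± 0.13 (adjusted p = 0.079), and this fall was called in 8 of 28 alternatives. Among these were normexp (-0.38, adjusted p = 0.016), quantile normalization (-0.40, 0.034) and median centring (-0.49, 0.021). It was also called with a replicate block (0.029), with slide and replicate blocks (0.026) and without 4OHT replicate 3 (-0.45, 0.019). Under MG132 the change with 4OHT was -0.22 ± 0.13 (adjusted p = 0.24) although the groups did not overlap. The other, dimmer Lamc1 probe changed by 0.17 ± 0.27 with MG132 and passed no test, and the mean of both probes was not called (-0.18, adjusted p = 0.43).

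Col4a1 and Col4a2, the chains of the collagen IV of most basement membranes, were not called between treatments in the fit without a replicate term. Col4a1 lay at 0.96, 0.74 and 1.68 in untreated cells, 0.72, 0.22 and 1.33 with 4OHT, 1.06, 0.92 and 1.71 with MG132, and 0.70, 0.52 and 1.60 with both compounds. Col4a2 lay at 0.11, -0.08 and 0.95, at 0.20, -0.59 and 0.60, at 0.42, 0.38 and 1.13, and at -0.05, -0.38 and 1.05 in the same groups. In each gene all groups overlapped and the third array of every group was its highest. The 95% intervals of the changes with 4OHT ran from -1.22 to 0.48 for Col4a1 and from -1.23 to 0.71 for Col4a2, so changes of more than 2-fold downward are within them; the spread behind these intervals includes the offset of the third arrays.

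The collagen IV genes lie head to head on opposite strands of chromosome 8, with start sites 21 bases apart in GRCm38.p6. The stretch that spans both start sites is shown because it belongs to both genes, read in the direction of Col4a2, from the start base of Col4a2 to that of Col4a1; capitals mark a GC box.
Col4a1 and Col4a2 (chr8:11312805-11312826): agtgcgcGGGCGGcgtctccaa
Over the 12 arrays the levels of Col4a1 and Col4a2 correlated at r = 0.977, the highest of the 45 pairs of members, and their deviations from the group means at 0.985. The median over pairs was 0.357 for levels and 0.716 for deviations, and the deviations correlated above 0 in 45 of 45 pairs. The lowest pair was Lama5 and Lamb1 with r = -0.762 for levels. These are descriptions, since the arrays share treatments and replicate numbers.

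**Figure D2:**
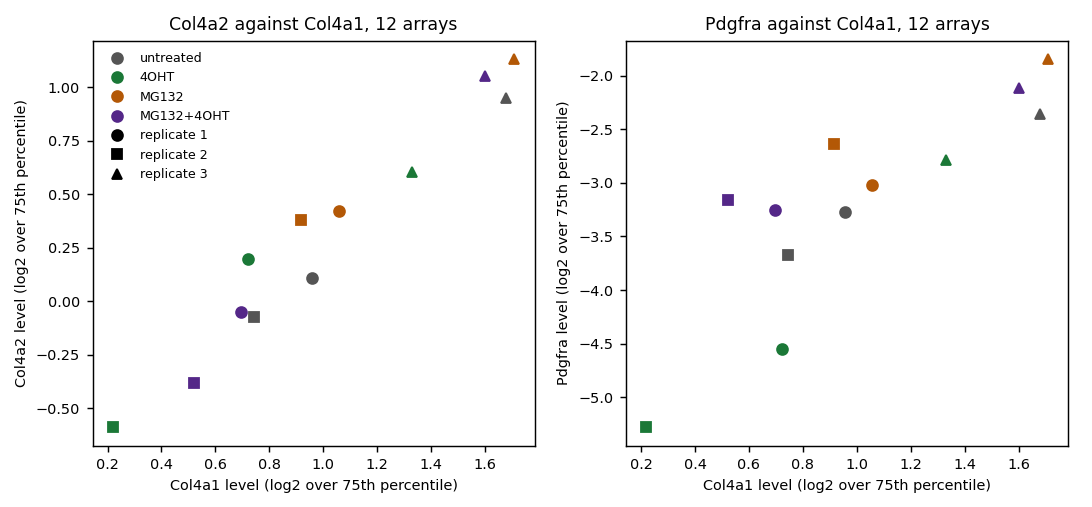
Levels of Col4a2 (left) and of the endoderm marker Pdgfra (right) against Col4a1 on the 12 arrays (log2 over the array's 75th percentile), with colours for the group and symbols for the replicate number. The replicate 3 arrays have the highest Col4a1 and Col4a2 levels, and Col4a1 and Col4a2 follow one line (r = 0.977). Their Pdgfra levels are the highest of each group, but that of 4OHT replicate 3 (-2.79) is below MG132 replicate 2 (-2.64).

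Of the linkers between the networks, Hspg2, which encodes perlecan, was called in 3 comparisons and Nid1 in 0 of the 4. Hspg2 lay at 3.73, 3.53 and 3.87 in untreated cells, 3.13, 2.97 and 3.36 with 4OHT, 4.10, 4.03 and 4.27 with MG132, and 4.17, 4.11 and 4.15 with both compounds. The MG132 groups overlapped each other and lay above the untreated arrays, which lay above those with 4OHT alone. Hspg2 fell by 0.56 ± 0.13 with 4OHT (adjusted p = 0.0076), rose by 0.42 ± 0.13 with MG132 (adjusted p = 0.021) and was 1.99-fold higher with both compounds than with 4OHT alone (0.99 ± 0.13, adjusted p = 0.00013). Under MG132, 4OHT moved it by 0.01 ± 0.13 (95% interval -0.27 to 0.29, adjusted p = 0.96). The fall with 4OHT had an adjusted p of 0.057 with only the arrays compared. The rise with MG132 was 0.12 (adjusted p = 0.48) after median centring and lost its call without untreated replicate 1 (0.050) or 2 (0.088) or MG132 replicate 3 (0.072). The other, dim probe lay at an intensity of 47.3 to 132 on 11 arrays and 917 on 4OHT replicate 2, and was called in 0 of the 6 tests. On 4OHT replicates 1 and 3 the dim probe lay at -2.03 and -2.55, against -1.72, -1.97 and -1.69 in untreated cells. With MG132 alone it lay at -1.18, -1.22 and -1.17, above the untreated arrays. The mean of both probes includes the 917 of 4OHT replicate 2 and was not fitted without it. That mean moved by 0.12 with 4OHT (adjusted p = 0.86), against the fall of the brighter probe. By that mean the rise with MG132 was 0.51 (adjusted p = 0.33) and that in cells with 4OHT 0.39 (0.43), so neither was called.

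Nid1, which encodes nidogen, lay at 4.42, 4.41 and 4.76 in untreated cells, 4.48, 4.22 and 4.68 with 4OHT, 4.20, 4.27 and 4.67 with MG132, and 4.57, 4.46 and 4.67 with both compounds. All groups overlapped, and the third array was the highest in each. Its changes in the 4 comparisons were between -0.15 and 0.19, with adjusted p-values of 0.43 to 0.81. After median centring the change with MG132 was -0.45 and was called (adjusted p = 0.032).

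Sparc, a matrix protein that binds collagen, was called in 1 comparison. It lay at 7.29, 7.29 and 7.82 in untreated cells, 7.54, 8.01 and 8.26 with 4OHT, 7.27, 7.18 and 7.68 with MG132, and 8.20, 7.97 and 8.06 with both compounds. The arrays with both compounds lay above all MG132 arrays, and the untreated and 4OHT groups overlapped. Sparc rose by 0.70 ± 0.21 with 4OHT under MG132 (adjusted p = 0.036), and its other probe by 0.74 ± 0.20 (adjusted p = 0.022). The call did not survive the loss of MG132 replicate 1 (adjusted p = 0.11) or 2 (0.12) or of replicate 1 (0.11), 2 (0.070) or 3 (0.079) of the group with both compounds, and the change was 0.40 within slide 2 (0.15) and 0.51 after quantile normalization (0.067). Without MG132 the change with 4OHT was 0.47 ± 0.21 (adjusted p = 0.13).

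Serpinh1, the collagen chaperone, a heat-inducible protein of the serpin family, showed the largest rise of the 10 genes with MG132. It lay at 0.78, 0.76 and 1.52 in untreated cells, 0.14, 0.17 and 1.42 with 4OHT, 2.37, 2.38 and 2.30 with MG132, and 2.24, 2.16 and 2.65 with both compounds. The 6 arrays with MG132 all lay above the 6 without it, and the third arrays of the untreated and 4OHT groups lay well above their partners. Serpinh1 rose 2.50-fold with MG132 (1.32 ± 0.33, adjusted p = 0.0086), by 1.35 within slide 1 (0.048), and 3.42-fold in cells that also had 4OHT (1.77 ± 0.33, adjusted p = 0.0014). With slide as a block the latter was 1.85 with an adjusted p of 0.070. With 4OHT alone the change was -0.45 ± 0.33 (adjusted p = 0.36); without the replicate 3 arrays it was -0.62 and was called (adjusted p = 0.0022).

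**Figure D3:**
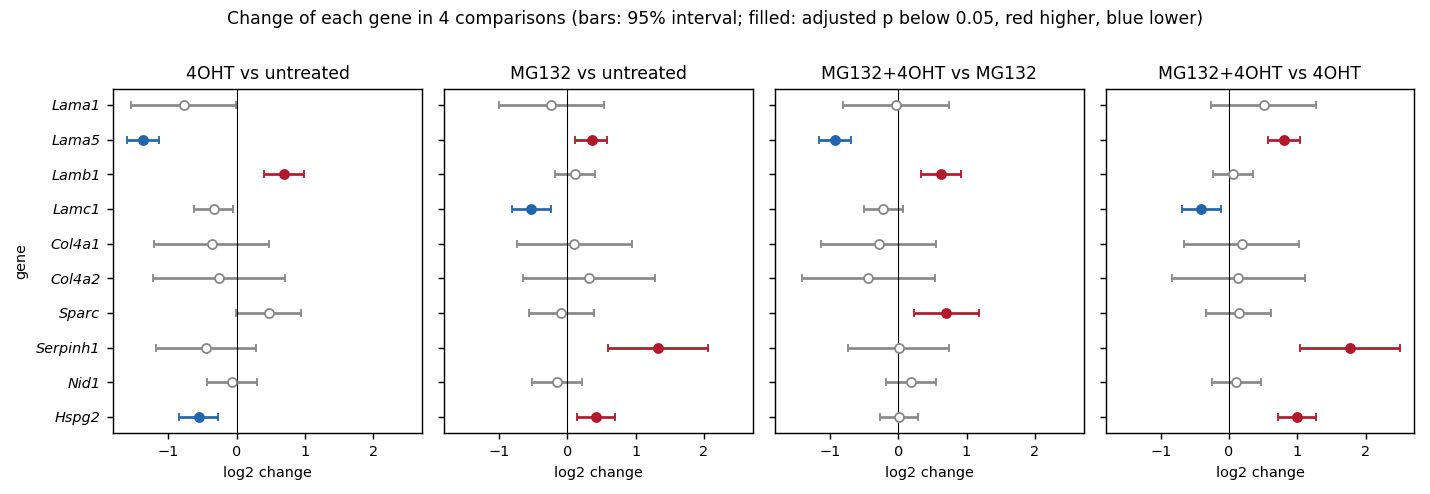
Log2 change of each of the 10 genes in 4 comparisons, with bars for the 95% interval, filled red where called higher, filled blue where called lower and open where not called. Lama5 is called in each panel, and Lama1, Col4a1, Col4a2 and Nid1 in none of them.

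Counted over the list, 4OHT changed 3 of the 10 genes against untreated cells (1 higher, 2 lower), beside 28.3% of all genes tested (13% higher, 15.3% lower). Their groups were also the 3 that did not overlap, beside 40.1% of all genes. The median change was -0.35, against 0.005 over all genes. With MG132, 4 of 10 were called (3 higher, 1 lower) beside 43.2% of all genes (22.3% higher, 20.9% lower). The same number did not overlap, beside 59.1%, and the median was 0.11, against 0.03 over all genes. For 4OHT under MG132, 3 of 10 were called (2 higher, 1 lower) beside 26% of all genes (12.9% higher, 13.1% lower). The groups of 4 did not overlap, beside 50.1%, with a median of -0.02 against 0.06. For MG132 in cells with 4OHT, 4 of 10 were called (3 higher, 1 lower) beside 49.7% (27.3% higher, 22.4% lower). Again 4 did not overlap, beside 56.8%, with a median of 0.16 against 0.09. In each comparison the share of members called was within 10 percentage points of that of all genes, or 1 gene in 10. The 4 genes Lama1, Col4a1, Col4a2 and Nid1 were called in 0 of the 4 comparisons.

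Slide can bear on 3 of these comparisons. Within slide 1, MG132 against untreated cells gave 0.36 for Lama5 (adjusted p = 0.083), 0.35 for Hspg2 (0.13), -0.53 for Lamc1 (0.049) and 1.35 for Serpinh1 (0.048). Within slide 2, 4OHT under MG132 gave -0.92 for Lama5 (adjusted p = 0.040). The groups with both compounds and with 4OHT alone share no slide. With slide as a block, fitted through the MG132 arrays, their comparison gave 0.81 for Lama5 (adjusted p = 0.020), 0.78 for Hspg2 (0.037) and -0.43 for Lamc1 (0.25). Slide 2 held no MG132-only array but replicate 3, so these values carry the difference of the replicate 3 arrays too. Beside the MG132 changes, 7 of 8 embryonic stem cell markers fell with MG132 (median -0.86), beside 20.9% of all genes, and Tfcp2l1 was not called. The summed intensity of the list over the 75th percentile went from 1357 to 1378 in untreated cells to 782 to 804. The brightest marker, Dppa5a, weighs most in that sum (mean level 9.63 in untreated cells and 8.81 with MG132). The part of these falls in the members' values was not tested. Of 16 endoderm markers tested, 4 were higher with 4OHT, 2 with MG132, 2 with 4OHT under MG132, and 4 higher and 2 lower with MG132 in cells with 4OHT. The shares of all genes called in either direction were 28.3%, 43.2%, 26% and 49.7% in the same order. Of 10 fibroblast markers tested, 4 were higher with 4OHT, led by S100a4 (4.56 ± 0.22), and 2 lower, Pdgfrb (-1.6 ± 0.51) and Fn1 (-0.44 ± 0.13). The summed intensity of the whole fibroblast list was 195 to 250 with 4OHT against 136 to 174 in untreated cells. That sum is weighted to the bright markers Vim, Fn1 and Acta2 and is not a rise of the whole list. From untreated cells to 4OHT the mean level of Vim went from 5.50 to 6.54, of Fn1 from 6.02 to 5.58 and of Acta2 from 5.14 to 5.34. That of S100a4 went from -3.14 to 1.42. Fewer of the list's markers were above background, 7 to 8 per array with 4OHT against 10 in untreated cells. The part of these changes in the members' values was likewise not tested.

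The difference of the 4OHT responses with and without MG132 was called in 0 of 10 members by limma, beside 6.46% of all genes (2.94% positive, 3.52% negative), while 2 had a 95% interval that left out 0 before adjustment. These were Hspg2, where the fall with 4OHT was smaller by 0.57 ± 0.18 under MG132 (adjusted p = 0.093), and Lama5, where it was smaller by 0.45 ± 0.15 (adjusted p = 0.11). Without 4OHT replicate 3 both were called, at 0.68 (adjusted p = 0.034) for Hspg2 and 0.55 (0.024) for Lama5. For Lamb1, which rose with 4OHT in both settings, the difference was -0.06 ± 0.19 (95% interval -0.47 to 0.35).

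The spread within groups followed the replicate number in part of the list. The replicate 3 array was the highest of its group in all 4 groups for 4 of the 10 genes, Lama1, Col4a1, Col4a2 and Nid1, beside 11.1% of all genes, and it was the lowest in all 4 groups for 0 members, beside 7.12%. This comparison was made because the replicate 3 arrays were known to stand apart. In a fit with the groups as terms, replicate 3 differed from replicates 1 and 2 by 0.85 ± 0.10 for Col4a1 (adjusted p = 0.0013), 0.93 ± 0.15 for Col4a2 (0.0058) and 0.32 ± 0.07 for Nid1 (0.024). These 3 of 10 members called, all higher, stand beside 9.9% of all genes called, 5.13% higher and 4.77% lower. For Col4a1 the difference was 0.83 in untreated cells, 0.86 with 4OHT, 0.72 with MG132 and 0.99 with both compounds, and for Col4a2 it was 0.93, 0.80, 0.73 and 1.27. All 10 members had a value above 0, with a median of 0.34 against 0.04 over all genes, and the smallest was 0.03 ± 0.08 for Lama5.

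Serpinh1 differed by 0.75 in untreated cells, 1.27 with 4OHT, -0.08 with MG132 and 0.45 with both compounds (0.60 ± 0.17, adjusted p = 0.059). Within slide 1 Serpinh1 was called (1.01, adjusted p = 0.038), while Col4a1 (0.84, 0.080), Col4a2 (0.87, 0.14) and Nid1 (0.34, 0.19) were not. The Nid1 call was also lost without 8 of the 12 arrays in turn (adjusted p up to 0.091). The other Sparc probe was called higher by 0.41 ± 0.07 (adjusted p = 0.0081) and the one that represents the gene was not (0.36 ± 0.12, adjusted p = 0.092).

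**Figure D4:**
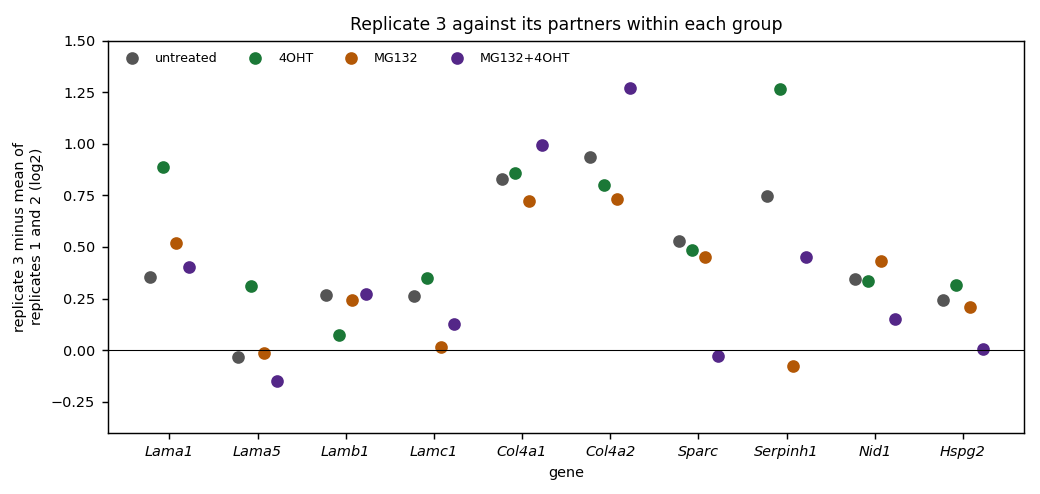
Level of each of the 10 genes on the replicate 3 array minus the mean of replicates 1 and 2 (log2), with 1 point per group. Col4a1 and Col4a2 lie between 0.72 and 1.27 in the 4 groups, Lama5 around 0.

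Markers of endoderm moved with these arrays. Of 16 endoderm markers tested, 7 were called higher in replicate 3 (median 0.72), beside 5.13% of all genes. They were led by Srgn, which encodes a proteoglycan core protein (1.52 ± 0.15), Cubn, which encodes an endocytic receptor (1.35 ± 0.14), and Pdgfra, a growth factor receptor of the primitive endoderm (1.33 ± 0.21). The summed intensity of the list over the 75th percentile was highest on the third array of each group: 3.93, 3.48 and 7.52 in untreated cells, 6.22, 4.78 and 9.13 with 4OHT, 5.25, 4.63 and 6.59 with MG132, and 9.12, 8.35 and 11.5 with both compounds. Ttr and Apoa1 were above background on 0 arrays. Of 10 fibroblast markers tested, 3 were called higher, Pdgfrb (0.95 ± 0.25), Col1a1 (0.68 ± 0.07) and Vim (0.54 ± 0.08), and of 8 embryonic stem cell markers 2 higher, Tfcp2l1 (1.06 ± 0.13) and Lin28a (0.33 ± 0.08), and 1 lower, Zfp42 (-0.27 ± 0.07). Several of these calls were not stable: that of Pdgfrb was lost in 18 of 23 alternatives, that of Zfp42 in 13 of 24 and that of Lin28a in 12 of 24. The part of such cells in the members' values was not tested.

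The genes whose pattern over the 12 arrays was most like the mean of the 10 members, by Pearson's r, were Pdgfra (0.970), Ankrd45 (0.955), Fam217a (0.946), Tnfrsf13c (0.940), Kdsr (0.919) and Slc2a5 (0.915). These values and those for single members below are the highest of a search among the genes tested with a symbol (15984, members included). The arrays share treatments and replicate numbers, so the values are descriptions. Pdgfra lay at -3.28, -3.67 and -2.36 in untreated cells, -4.55, -5.28 and -2.79 with 4OHT, -3.02, -2.64 and -1.85 with MG132, and -3.26, -3.16 and -2.11 with both compounds. Its level was highest on the third array of each group and lowest on 4OHT replicates 1 and 2. Pdgfra was dim, at intensities of 7.98 to 82.7, and well above background on 11 arrays. Gene by gene its r was 0.851 with Col4a1, 0.812 with Col4a2, 0.809 with Hspg2, 0.807 with Serpinh1 and 0.799 with Lama1. It was 0.644 with Lama5, 0.575 with Nid1, 0.039 with Lamc1, 0.022 with Sparc and -0.118 with Lamb1. The single genes most like each member were Tada1 for Lama5 (0.992), Tedc2 for Hspg2 (0.983), Glud1 for Lamb1 (0.980), Ostm1 for Lamc1 (0.980), Rps21 for Sparc (0.979), Btg2 for Serpinh1 (0.979), Ipo9 for Col4a1 (0.967) and Col4a2 (0.950), Zfp951 for Nid1 (0.939) and 6330418K02Rik for Lama1 (0.900).

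For the counts of related genes that follow, the share of all genes called in either direction was 28.3% with 4OHT and 43.2% with MG132. It was 26% for 4OHT under MG132, 49.7% for MG132 in cells with 4OHT and 9.9% in replicate 3. Of 28 other components of basement membranes, 17 were tested. With 4OHT 4 were called higher and 5 lower, led by Tinagl1, which encodes a matrix protein (4.08 ± 0.30), and the laminin alpha chain Lama3 (2.43 ± 0.27). Frem2, which was not well above background with 4OHT, fell in the fit (-1.67 ± 0.31) but not under normexp background correction (0.068). The median of the list was -0.04. With MG132 6 were higher and 2 lower (median 0.48), led by Lama3 (2.79 ± 0.27), Smoc2 and Npnt. Neither Smoc2 nor Npnt was well above background in untreated cells. Npnt was at least 2.39-fold higher in the main processing, with a log2 change as low as 0.33 over the alternatives. Smoc2 was well above background on only 1 MG132 array, so no least fold is given. Its log2 change was 2.65 ± 0.27 in the main fit and as low as 0.31 over the alternatives. Under MG132, 4OHT gave 5 higher and 6 lower, with Tinagl1 at 2.30 ± 0.30 and the fibulin gene Fbln2 at -1.30 ± 0.27, and MG132 in cells with 4OHT gave 6 higher and 5 lower, with Fbln2 at 2.32 ± 0.27 and the laminin beta chain Lamb3 at 1.69 ± 0.26. In replicate 3, 1 was called, Smoc1, which was lower (-0.38 ± 0.07).

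Genes that process and crosslink collagen, beside Serpinh1, were tested for 19 of 25. With MG132 5 were higher and 4 lower (median -0.07), the 5 including Loxl4, which was not well above background in either group. The 3 largest changes were Fkbp10, which encodes a collagen chaperone of the endoplasmic reticulum (2.64 ± 0.15), the lysyl hydroxylase Plod2 (1.58 ± 0.16) and the prolyl hydroxylase subunit P4ha2 (1.22 ± 0.24). With 4OHT 5 were higher and 5 lower. The lysyl oxidase family gene Loxl4 was not well above background in untreated cells and was at least 38.9-fold higher in the main processing. Over the alternatives its log2 change was as low as 2.35. Pxdn, whose enzyme crosslinks collagen IV, rose by 2.27 ± 0.26, while P3h3 fell by 0.88 ± 0.15. For 4OHT under MG132 the counts were 1 higher and 4 lower, and for MG132 in cells with 4OHT 5 higher and 7 lower, with Pxdn at -2.34 ± 0.26. In replicate 3, 3 were higher: P4ha2 (0.50 ± 0.08), Colgalt1 (0.29 ± 0.06) and Fkbp10 (0.28 ± 0.06).

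Matrix receptors were tested for 16 of 17. With 4OHT 6 were higher and 5 lower, led by the laminin-binding integrin chains Itga7 (2.99 ± 0.21) and Itga3 (2.95 ± 0.24). The collagen receptor Ddr2, not well above background with 4OHT, was lower by at least 2.73-fold in the main processing. Over the alternatives its log2 change was as small as -0.36. With MG132 7 were higher and 2 lower, led by Itga7 (2.24 ± 0.21), the syndecan Sdc4 (2.17 ± 0.13) and Ddr2 (2.09 ± 0.33). For 4OHT under MG132 the counts were 5 higher and 6 lower, and for MG132 in cells with 4OHT 6 higher and 5 lower. Of 19 matrix proteases and inhibitors, all tested, 8 were higher and 3 lower with 4OHT, led by the urokinase receptor Plaur (3.70 ± 0.24), Adamts1 (3.18 ± 0.28) and the gelatinase Mmp9, which was at least 3.77-fold higher in the main processing. Over the alternatives the log2 change of Mmp9 was as low as 0.59. With MG132 6 were higher and 6 lower, led by the protease inhibitor Serpine2 (3.38 ± 0.23). The counts were 8 higher and 3 lower both for 4OHT under MG132 and for MG132 in cells with 4OHT.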

How the data were processed

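Total RNA of 12 cultures was labelled with Cy3 and hybridised to one-colour Agilent mouse arrays, per the labels. The intensity values the authors deposited come from Agilent Feature Extraction 11.0.1.1 and are background-subtracted and detrended but not scaled between arrays, per the file headers. The deposited series-wide table holds identical intensities (largest difference 0). Of 62976 spots, 3671 control spots were left out, as were outlier spots. Spots of a probe were averaged (56605 probes). Accessions were matched without versions to RefSeq (GRCm38.p6), which named 32994 probes (58.3%). Array coordinates, on an older build, were not used.

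The log2 of each intensity over the array's 75th percentile (207.2 to 320.1) was computed. Kept were probes well above background on every array of some group, with the brightest probe per gene. The fit used limma 3.58.1 under R 4.3.3, with a coefficient for each group (8 residual degrees of freedom, 2.11 prior), Benjamini-Hochberg adjustment and a threshold of 0.05, and tested on simulated data. For an at-least fold, the dim group's signals were raised, per array, to the weakest one that counted as above background. These folds were computed in the main processing only and are no lower bound for the alternatives. Other software was data.table, version 1.17.8, jsonlite 2.0.0, numpy 2.4.6, matplotlib 3.10.9 and Python 3.11.15.

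The members, gene lists and the replicate 3 comparison were chosen with earlier results of these data known. Named genes were the members, up to 3 called genes per list and comparison by size of change, and the genes most alike. Lists were other basement membrane genes, collagen processing and crosslinking, matrix receptors, matrix proteases and inhibitors, and embryonic stem cell, endoderm and fibroblast markers.

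Alternatives were normexp (offset 50), quantile normalization, median centring, array weights, an intensity trend, the mean over probes, no filter, a stricter filter on all 12 arrays, only the arrays compared, slide and replicate blocks, the series-wide values, and leaving out each array or all replicate 3 arrays. Normexp ran on median signals because the files hold no mean signals. Same-numbered arrays did not all deviate together, though at the median they were more alike than differently numbered ones. The main fit has no replicate block, so any effect of the replicate number adds to its error.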

Additional observations from a re-analysis of the deposited data

Results flagged for a closer look

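Up to 3 genes per list around the members were taken by size of the difference, 12 in all, each well above background on arrays of all 4 groups. Their 4OHT response with MG132 differed from that without it (difference on the log2 scale, adjusted p below 0.05 in limma). The difference was positive for Adamts9, a matrix protease gene that changed by -1.22 with 4OHT alone and -0.30 under MG132 (0.92 ± 0.22). It was negative for the basement membrane genes Tinagl1 (-1.78 ± 0.42) and Lama3 (-1.53 ± 0.38). Among collagen-processing genes it was negative for Pxdn (-1.88 ± 0.36) and Fkbp10 (-1.36 ± 0.20). Loxl4 and the endoderm marker Afp are left out, since they were not well above background in at least 1 group and no size of the difference can be given. Among matrix receptors it was negative for Itga3 (-1.74 ± 0.33), Itga7 (-1.31 ± 0.30) and Sdc4 (-1.29 ± 0.18). The receptors Itgb4 (-0.62 ± 0.15, adjusted p = 0.035) and Bcam (-0.58 ± 0.15, 0.042) were also called by limma. They fell outside the 3 largest and were not followed through the alternatives. Of the markers, Thy1 (-3.36 ± 0.27), S100a4 (-1.25 ± 0.32), Lrp2 (-1.11 ± 0.19) and Sox2 (-0.60 ± 0.14) also had negative values. The calls were lost in 15 of 26 alternatives for Lama3 (adjusted p up to 0.15), 14 for Tinagl1 (0.16), 13 for Sox2 (0.17) and S100a4 (0.11), 12 for Itga7 (0.087), 9 for Adamts9 (0.13), 2 for Itga3 (0.076), and 1 each for Lrp2 (0.058) and Pxdn (0.070). They were lost in 0 of 26 for Fkbp10, Sdc4 and Thy1. Of the 10 members, 0 were called in this test.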

How the results depend on the processing

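The falls of Lama5 with 4OHT (with and without MG132), the rise of Lamb1 with 4OHT against untreated cells and that of Serpinh1 with MG132 kept direction and call in all alternatives run. Members called with 4OHT (3) were 5 under normexp or median centring and 6 under array weights, a replicate block, or slide and replicate blocks (among them, under a replicate block and under both blocks, Col4a1 at -0.37 ± 0.10 with adjusted p = 0.021 and 0.025, and Lama1 at -0.78 ± 0.22 with 0.028 and -0.78 ± 0.23 with 0.044); with MG132 (4), 2 without the filter, with the mean over probes or within slide 1; for 4OHT under MG132 (3), 1 with slide as a fixed block or within slide 2; for MG132 in cells with 4OHT (4), 2 with the mean over probes or slide as a fixed block. For the difference of responses (0), they were 1 under normexp or a replicate block and 2 under array weights or without all replicate 3 arrays; for replicate 3 (3), 6 under an intensity trend and 1 within slide 1. Leaving out 1 array gave 3 to 6, 2 to 4, 2 to 3, 3 to 4, 0 to 2 and 2 to 5 in the same order. Reversed values were Hspg2 with 4OHT by the mean over probes (0.12) and Frem2 with 4OHT under normexp (0.068). The Hspg2 mean takes in the outlying dim-probe value of 4OHT replicate 2. Sign changes where neither fit made a call were not counted. Same-numbered arrays correlated in their deviations at -0.062 to 0.155 (replicate 1, median 0.066), 0.072 to 0.154 (replicate 2, 0.119) and 0.115 to 0.406 (replicate 3, 0.31). Differently numbered arrays of different groups correlated at -0.292 to 0.194 (median -0.138). The numbers were not taken as a pairing in the main fit, and the replicate blocks above show what that choice changes. Median centring moved the median of all genes to -0.15 with 4OHT, -0.28 with MG132, -0.11 for MG132 with 4OHT and 0.15 for the difference of responses, and genes called higher and lower to 2263 and 5419 (from 3488 and 4109), 3496 and 9554 (from 5986 and 5620), 4994 and 7960 (from 7327 and 6021), and 881 and 590 (from 790 and 944). With 4OHT, normexp gave 5673 and 3643. Genes called changed by over 1.5 times without the filter (4OHT 14159 from 7597, replicate 3 1332 from 2656), under array weights (4OHT under MG132 13986 from 6991, difference 4617 from 1734), with only the arrays compared (4OHT 4987), with slide as a fixed block (2881, 5277, 761 and 1737 from 6991, 13348, 1734 and 2656), with slide and replicate blocks (2237, 4773 and 766), within slides (replicate 3 317, 4OHT under MG132 2105) and without all replicate 3 arrays (difference 2872). Without 1 array they were 4504 to 8671 for 4OHT under MG132, 998 to 2515 for the difference and 1626 to 3461 for replicate 3. Within-slide fits were chosen after the data were seen, and causes were not tested. Signal over background limits the dim probes.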
